A study of Mus musculus with 6 samples.

Results

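The genes described here are 37 genes of the extracellular matrix and its remodelling, taken by symbol from a table of read counts for 46095 genes. All 37 symbols were present and 36 had enough counts to be tested. They were compared between cultured mouse macrophages of wild-type C57BL/6 animals (WT) and of C57BL/6 animals labelled Cd226-/-, after the gene of the adhesion receptor CD226 (DNAM-1), with 3 libraries per genotype. Animals were 56 days old. Cells of both genotypes were grown from bone marrow for 7 days with 20 ng/ml M-CSF, the growth factor of macrophages, and then received 20 ng/ml IFN-γ and 100 ng/ml LPS for 24 h. Every library is therefore from stimulated cells. The labels do not say how the gene was disrupted or whether replicates came from separate mice, and p-values therefore cover the spread among these libraries alone, possibly technical spread.

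The extracellular matrix is a mesh of collagen fibres, proteoglycans and adhesive glycoproteins that is laid down mostly by fibroblasts and other stromal cells. Macrophages supply glycoproteins such as fibronectin and many of the enzymes that cut the matrix: matrix metalloproteinases (MMPs), membrane-bound ADAM proteases and the urokinase system, which activates plasmin. Tissue inhibitors of metalloproteinases (TIMPs) block these enzymes.

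Total counts were 16838527 to 21658061 per library, and the 37 genes took 1.20 to 1.34% of them in WT and 0.896 to 0.941% in Cd226-/-. Cd226 itself had 5, 17 and 23 counts in WT and 11, 10 and 8 counts in Cd226-/- (log2 fold change -0.50 ± 0.50 (SE), adjusted p = 0.480), so its transcript did not check the genotype labels. The macrophage markers Adgre1, Csf1r, Cd68, Itgam and Lyz2 were abundant in both genotypes, with mean levels from 587 CPM (read counts scaled to library size; Cd68 in WT) to 11816 CPM (Lyz2 in Cd226-/-). Their levels differed in both directions: of 9 macrophage markers 4 rose and 3 fell at an adjusted p under 0.05. That is 77.8% called, beside 30.9% of all tested genes. Adgre1 (1.20-fold) and Cd68 (1.31-fold) were among those that rose. The 3 that fell were Csf1r (log2 fold change -0.29), Itgam (-0.30) and Cd14 (-0.37). Cd226-/- replicate 1 stood apart from replicates 2 and 3 on the second principal component (14.2% of variance). Hepatocyte transcripts were present mainly in Cd226-/- replicates 2 and 3: the counts of 11 markers, Trf left out, summed to 0, 1 and 4 for WT and 3, 447 and 536 for Cd226-/-. For the 37 genes, results with replicate 1 alone on the Cd226-/- side are therefore given where they change a call. For marker genes and further matrix genes that setting is not given gene by gene, and their calls may depend on replicates 2 and 3.

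Of the 36 tested genes 14 rose and 15 fell in Cd226-/- at an adjusted p under 0.05 (edgeR's quasi-likelihood test, adjusted over all 13215 genes tested). That is 80.6% of the tested members, beside 30.9% of all tested genes (16.1% higher and 14.8% lower). The members' median log2 fold change was -0.14, beside -0.0045 for all tested genes. The classes were mixed. Of 14 tested collagens and proteoglycans 8 rose and 2 fell, of 8 glycoproteins and associated proteins 2 rose and 6 fell, and of 14 proteases, their receptor and inhibitors 4 rose and 7 fell. With replicate 1 alone on the Cd226-/- side the members' median log2 fold change was -0.096, beside -0.013 for all genes tested in that setting. The 36 tested members had at least 27 counts in every library, so none passed the filter through 1 genotype only. Without strand information, reads of overlapping genes cannot be separated, and 4 members share over 20% of their exon bases with another gene (Fbn1, Ctgf, Mmp19 and Timp3).

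**Figure D1:**
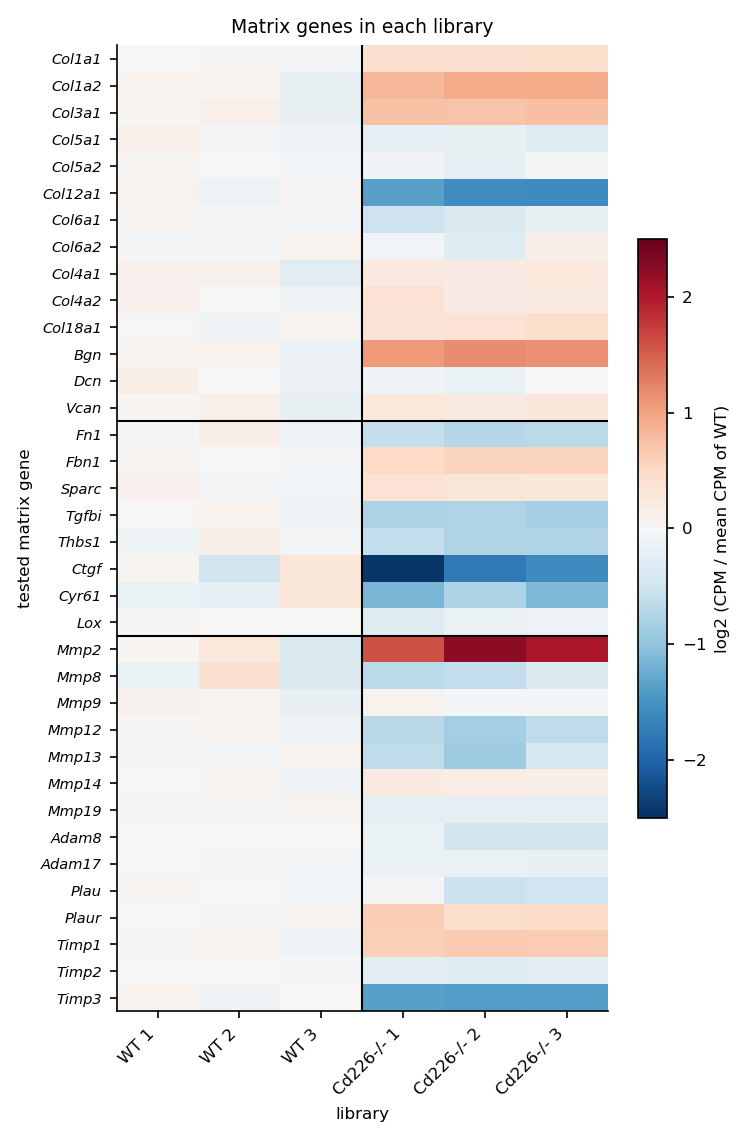
Level of the 36 tested matrix genes (rows, ordered by class, with lines between the classes) in each of the 6 libraries (columns), as log2 of CPM over the mean CPM of WT. Col1a2, Col3a1, Bgn, Mmp2, Plaur and Timp1 are above the WT mean in all 3 Cd226-/- libraries, and Col12a1, Ctgf, Cyr61 and Timp3 are below it in all 3.

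Levels of different genes can be compared only per length, here as mean CPM per kilobase of annotated exon. On that scale Thbs1 ranked first in both genotypes, at 703 CPM per kilobase in WT and 432 in Cd226-/-. Timp1 came next, at 269.9 and 417. Fn1 was at 247 in WT and 157 in Cd226-/-, Adam8 at 206 and 161, and Mmp14 at 125 and 142. The stromal genes were lower by this measure: Dcn was at 26.3 and 24.6 CPM per kilobase, Col1a1 at 17.7 and 23.6, and Col3a1 at 17.6 and 29.1. Among the 37 genes Col3a1 ranked 16 in WT and 13 in Cd226-/-, Bgn 26 and 20, and Timp3 27 and 32. Fn1 and Thbs1 together made up 56.5 to 60.0% of the members' counts in WT and 47.3 to 48.2% in Cd226-/-.

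The fibrillar collagens divided. Type I and type III collagen, the main fibres of loose connective tissue, were higher in Cd226-/-, while collagen XII, which decorates those fibres, was lower. Col1a1, the α1 chain of type I collagen, had 116, 119 and 113 CPM in WT and 155, 152 and 157 CPM in Cd226-/-. It rose 1.34-fold (log2 fold change 0.42 ± 0.050 (SE), adjusted p = 1.09e-06). Its partner chain Col1a2 had 98.9, 97.1 and 81.7 CPM in WT and 164, 176 and 176 CPM in Cd226-/- and rose 1.86-fold (log2 fold change 0.90 ± 0.065 (SE), adjusted p = 3.27e-09). The 2 chains of this collagen thus rose by different amounts, and the ratio of Col1a1 to Col1a2 counts was 1.17, 1.22 and 1.38 for WT and 0.948, 0.863 and 0.891 for Cd226-/-, with no overlap. Col3a1, the single chain of type III collagen, had 178, 188 and 152 CPM in WT and 286, 281 and 289 CPM in Cd226-/- and rose 1.66-fold (log2 fold change 0.73 ± 0.063 (SE), adjusted p = 6.64e-08). For these 3 genes all Cd226-/- libraries lay above all WT libraries, and each remained called under every alternative. No overlap between genotypes was seen for 44.4% of all tested genes.

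Col12a1 had 31.1, 26.7 and 30.1 CPM in WT and 11.5, 9.94 and 9.79 CPM in Cd226-/-. It fell by 1.50 on the log2 scale (log2 fold change -1.50 ± 0.10 (SE), adjusted p = 2.72e-10), and every Cd226-/- library was well under every WT library. The ratio of Col3a1 to Col12a1 counts was 5.70, 7.03 and 5.05 for WT and 25, 28.3 and 29.5 for Cd226-/-. Type V collagen, which sets the width of type I fibrils, moved less. Col5a1 had 55.8, 49.6 and 47.5 CPM in WT and 43.1, 44.6 and 40.9 CPM in Cd226-/- and fell (log2 fold change -0.25 ± 0.071 (SE), adjusted p = 0.00999), but its call was lost without WT replicate 1 (adjusted p = 0.0886), without Cd226-/- replicate 3 (0.0619) and with replicate 1 alone on the Cd226-/- side (0.0917). Col5a2 did not pass (log2 fold change -0.12 ± 0.063 (SE), adjusted p = 0.168), and its genotypes overlapped. Scaled by library size alone, a setting that moves the median of all genes to -0.058, it was called lower (adjusted p = 0.0400).

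Collagen VI, which forms beaded microfilaments, gave no call. Col6a1 had 7.77, 7.24 and 7.32 CPM in WT and 5.23, 5.81 and 6.53 CPM in Cd226-/-, lower in each Cd226-/- library than in any WT library but short of the threshold (log2 fold change -0.35 ± 0.15 (SE), adjusted p = 0.0907). Col6a2 levels overlapped (log2 fold change -0.051 ± 0.16 (SE), adjusted p = 0.839).

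The 3 basement membrane collagens were called higher, by small amounts. Col4a1 and Col4a2 encode the chains of the main type IV collagen network and lie head to head on chromosome 8 (GRCm38): Col4a1 ends at 11312826 on the minus strand and Col4a2 begins at 11312805 on the plus strand, so that their first exons share 22 bases. Col4a1 had 41.3, 41.3 and 32 CPM in WT and 45.5, 44.1 and 46 CPM in Cd226-/- (log2 fold change 0.25 ± 0.085 (SE), adjusted p = 0.0321), and Col4a2 had 36.7, 33.9 and 31.7 CPM in WT and 43.6, 39.4 and 39.9 CPM in Cd226-/- (log2 fold change 0.27 ± 0.076 (SE), adjusted p = 0.00959). The ratio of Col4a1 to Col4a2 counts overlapped between genotypes, at 1.13, 1.22 and 1.01 for WT and 1.04, 1.12 and 1.15 for Cd226-/-. The Col4a1 call was lost without WT replicate 3 (adjusted p = 0.206), without Cd226-/- replicate 1 (0.0590) or replicate 3 (0.0939), by library size alone (0.0841) and with replicate 1 alone on the Cd226-/- side (0.136). WT replicate 3 also decided Col4a2, which without it had an adjusted p of 0.0638. Col18a1, the precursor of endostatin, had 15.2, 14.2 and 15.9 CPM in WT and 18.8, 19.5 and 20.6 CPM in Cd226-/- and rose 1.30-fold (log2 fold change 0.38 ± 0.097 (SE), adjusted p = 0.00503), but missed the threshold with replicate 1 alone on the Cd226-/- side (0.126).

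Among the proteoglycans, biglycan showed the largest difference. Bgn, a small leucine-rich proteoglycan that binds collagen and, when set free, Toll-like receptors, had 31.1, 32.2 and 27.2 CPM in WT and 63.5, 68.2 and 66.9 CPM in Cd226-/-. It rose 2.20-fold (log2 fold change 1.14 ± 0.071 (SE), adjusted p = 9.04e-11), with no overlap, and was called under every alternative. Dcn, its close relative decorin, did not pass: it had 169, 153 and 138 CPM in WT and 142, 137 and 152 CPM in Cd226-/-, which overlapped (log2 fold change -0.092 ± 0.065 (SE), adjusted p = 0.304). Vcan, the large hyaluronan-binding proteoglycan versican, had 49.1, 52.1 and 42.1 CPM in WT and 57.4, 55.6 and 58.1 CPM in Cd226-/- and rose 1.20-fold (log2 fold change 0.26 ± 0.072 (SE), adjusted p = 0.00858), but not without WT replicate 3 (adjusted p = 0.0781). Lum, which encodes lumican and is plentiful in fibroblast matrix, was close to undetected, with 2, 7 and 4 counts in WT and 3, 0 and 7 counts in Cd226-/-. It was not tested, and the 0 in Cd226-/- replicate 2 allows up to 3 counts, or 0.180 CPM.

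Markers of other cell types were looked up beside these genes. Of 15 fibroblast and stromal cell markers 10 were tested, 3 rose and 0 fell, a share of 30% called that is close to the 30.9% of all tested genes. Their summed level was 72.4 to 81.4 CPM in WT and 90.8 to 118 CPM in Cd226-/-. Pdgfrb, a receptor of fibroblasts and pericytes, had 3.94, 2.57 and 3.30 CPM in WT and 9.91, 8.08 and 8.43 CPM in Cd226-/- (log2 fold change 1.43 ± 0.18 (SE), adjusted p = 2.24e-06). Cxcl12, a stromal chemokine, had 3.23, 3.50 and 2.26 CPM in WT and 12.8, 14 and 16 CPM in Cd226-/- (log2 fold change 2.27 ± 0.17 (SE), adjusted p = 8.80e-10), and Pdgfra had 11.8, 11.7 and 9.08 CPM in WT and 12.8, 13.4 and 17.2 CPM in Cd226-/- (log2 fold change 0.42 ± 0.13 (SE), adjusted p = 0.0190). Without Cxcl12 the summed level of the list was 78.2, 76.8 and 70.1 for WT and 78, 89.6 and 102 for Cd226-/- CPM, with Cd226-/- replicate 1 within the WT range. Pdpn, also in that sum, had 11.9, 17.7 and 12.6 CPM in WT and 10.7, 21.9 and 24.9 CPM in Cd226-/- and did not pass. Cd226-/- replicate 1 was the lowest of the 6 libraries for Pdpn. Thy1, Cdh11, Prrx1, Twist1, Acta2 and Tagln did not pass, and Cspg4 had 1 count in 1 library and 0 in the other 5. Of 7 osteoblast markers, Sp7, Bglap, Bglap2, Ibsp and Dmp1 were at 0 in all 6 libraries. Runx2 had 102, 59 and 98 counts in WT and 91, 100 and 84 counts in Cd226-/- and did not pass. Alpl had 3, 6 and 0 counts in WT and 2, 9 and 6 counts in Cd226-/- and was not tested. Of 10 endothelial cell markers 6 were tested, 2 rose and 1 fell, or 50% beside 30.9% of all tested genes. The sum of the 10 was 21.7 to 23.9 CPM in WT and 29.2 to 33.4 CPM in Cd226-/-. Kdr, a receptor of VEGF, rose 3.40-fold (adjusted p = 1.57e-06) and Pecam1 1.31-fold (adjusted p = 0.0163), whereas Esam had 1.97, 2.10 and 2.21 CPM in WT and 0.606, 0.479 and 0.762 CPM in Cd226-/- and fell (adjusted p = 6.17e-04). Cdh5, Vwf and Flt4 were detected in every library and did not pass. Cdh5 had 27, 11 and 17 counts in WT and 7, 20 and 20 counts in Cd226-/-. Vwf had 75, 61 and 74 counts in WT and 74, 54 and 68 counts in Cd226-/-. Flt4 had 60, 41 and 56 counts in WT and 65, 82 and 61 counts in Cd226-/-. Tek had 2 counts in WT replicate 3 alone and Tie1 had 1 count in Cd226-/- replicate 3 alone. Emcn and Cldn5 were at 0 in all 6 libraries. All 5 B cell markers rose, or 100% beside 30.9% of all tested genes. Their sum was 12.1 to 15.1 CPM in WT and 30.0 to 39.3 CPM in Cd226-/-. Ms4a1, which encodes CD20, had 2.30, 1.52 and 2.26 CPM in WT and 7.43, 8.20 and 8.87 CPM in Cd226-/- (log2 fold change 2.00 ± 0.20 (SE), adjusted p = 7.54e-08), and Cd79a, Cd79b and Pax5 rose between 2.27-fold and 2.42-fold. In bulk samples, more cells of a type and more RNA per cell cannot be told apart, and the part of stromal, endothelial or B cells in the collagen, basement membrane and proteoglycan levels was not tested.

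The adhesive glycoproteins mostly fell, among them Thbs1, which ranked first per kilobase. Thbs1, thrombospondin 1, which regulates adhesion and activates latent TGF-β, had 3986, 4702 and 4124 CPM in WT and 2789.9, 2542 and 2545 CPM in Cd226-/-. It fell by 0.70 on the log2 scale (log2 fold change -0.70 ± 0.062 (SE), adjusted p = 2.72e-08). Fn1, fibronectin, had 2803, 3227 and 2635 CPM in WT and 1921, 1759 and 1819 CPM in Cd226-/- (log2 fold change -0.66 ± 0.065 (SE), adjusted p = 3.52e-07), and Tgfbi, a TGF-β-induced protein that links collagens to integrins, had 528, 568 and 501 CPM in WT and 309.8, 315 and 301 CPM in Cd226-/- (log2 fold change -0.79 ± 0.052 (SE), adjusted p = 2.15e-10). For all 3 the Cd226-/- libraries were below the WT libraries. Fibronectin is also a product of hepatocytes, whose 11 markers had 3 counts in Cd226-/- replicate 1. Among the Cd226-/- libraries Fn1 was highest in replicate 1, at 1921 CPM. With replicate 1 alone on the Cd226-/- side the Fn1 log2 fold change was -0.58. The part of hepatocyte RNA in the Fn1 levels was not tested.

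Fbn1 and Sparc went the other way. Fbn1, fibrillin 1 of elastic microfibrils, had 36.8, 34.7 and 34 CPM in WT and 49.4, 51.7 and 51.7 CPM in Cd226-/- and rose 1.45-fold (log2 fold change 0.54 ± 0.067 (SE), adjusted p = 2.26e-06). Sparc, osteonectin, a collagen-binding protein of matrix-producing cells, had 110.3, 101 and 97.5 CPM in WT and 131, 127 and 125 CPM in Cd226-/- and rose 1.24-fold (log2 fold change 0.31 ± 0.055 (SE), adjusted p = 1.56e-04). Lox, the lysyl oxidase that cross-links collagen and elastin, had 75.1, 73.3 and 73.4 CPM in WT and 60.0, 65.5 and 67.9 CPM in Cd226-/-, a small fall (log2 fold change -0.20 ± 0.060 (SE), adjusted p = 0.0147) that was not called without WT replicate 1 (adjusted p = 0.0592). Lox acts on the products of Col1a1, Col1a2 and Col3a1, which rose.

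The 2 CCN genes, which encode secreted matricellular proteins, fell and were at low levels. Ctgf (connective tissue growth factor, now Ccn2) had 8.32, 5.78 and 9.81 CPM in WT and 1.49, 2.34 and 2.67 CPM in Cd226-/-, from 152, 99 and 217 counts in WT and 27, 39 and 49 counts in Cd226-/-. It fell by 1.89 on the log2 scale (log2 fold change -1.89 ± 0.23 (SE), adjusted p = 2.89e-06). Of its exon bases 23.2% are shared with the antisense gene Gm15270. Cyr61 (now Ccn1) had 6.30, 6.13 and 8.77 CPM in WT and 3.19, 4.13 and 3.26 CPM in Cd226-/- and fell by 1.01 (log2 fold change -1.01 ± 0.19 (SE), adjusted p = 3.05e-04). In both genes the highest Cd226-/- library was below the lowest WT library, and WT replicate 3 was the highest of the 6. Both are textbook targets of the YAP and TEAD transcription factors, and TEAD proteins bind the letters GGAATG. The promoter window of Cyr61 is shown since it holds this motif, as does that of Timp1, a gene that rose. Sequences are the 250 bases before the RefSeq start site (GRCm38.p6), written 5′ to 3′ on the gene's strand, with the motif on either strand in capitals. The Cyr61 window is chr3:145649986-145650235 (minus strand) and the match begins 103 bases before the start. The Timp1 window is chrX:20869916-20870165 (plus strand) and the match begins 247 bases before the start.
Cyr61: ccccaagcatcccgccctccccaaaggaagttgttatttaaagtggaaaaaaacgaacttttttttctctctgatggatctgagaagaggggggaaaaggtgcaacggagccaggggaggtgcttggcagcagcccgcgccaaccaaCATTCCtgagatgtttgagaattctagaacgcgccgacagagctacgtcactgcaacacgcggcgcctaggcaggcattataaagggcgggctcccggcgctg
Timp1: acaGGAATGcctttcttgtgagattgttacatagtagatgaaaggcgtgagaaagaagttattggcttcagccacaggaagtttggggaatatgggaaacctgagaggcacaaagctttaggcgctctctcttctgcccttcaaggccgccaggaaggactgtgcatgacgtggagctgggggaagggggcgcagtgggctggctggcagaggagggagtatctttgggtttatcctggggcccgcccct

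GGAATG on either strand was found in 5 of the 27 windows that RefSeq lists for 24 members, beside 12.6% of all 32851 windows of that length. The 5 windows belong to Col3a1, Col6a2, Col18a1, Cyr61 and Timp1. These genes include 3 that rose, 1 that fell and 1 that was not called. The 13 members with no entry were Col1a1, Col5a2, Col12a1, Dcn, Lum, Fn1, Thbs1, Ctgf, Lox, Mmp2, Mmp9, Mmp19 and Plau.

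**Figure D2:**
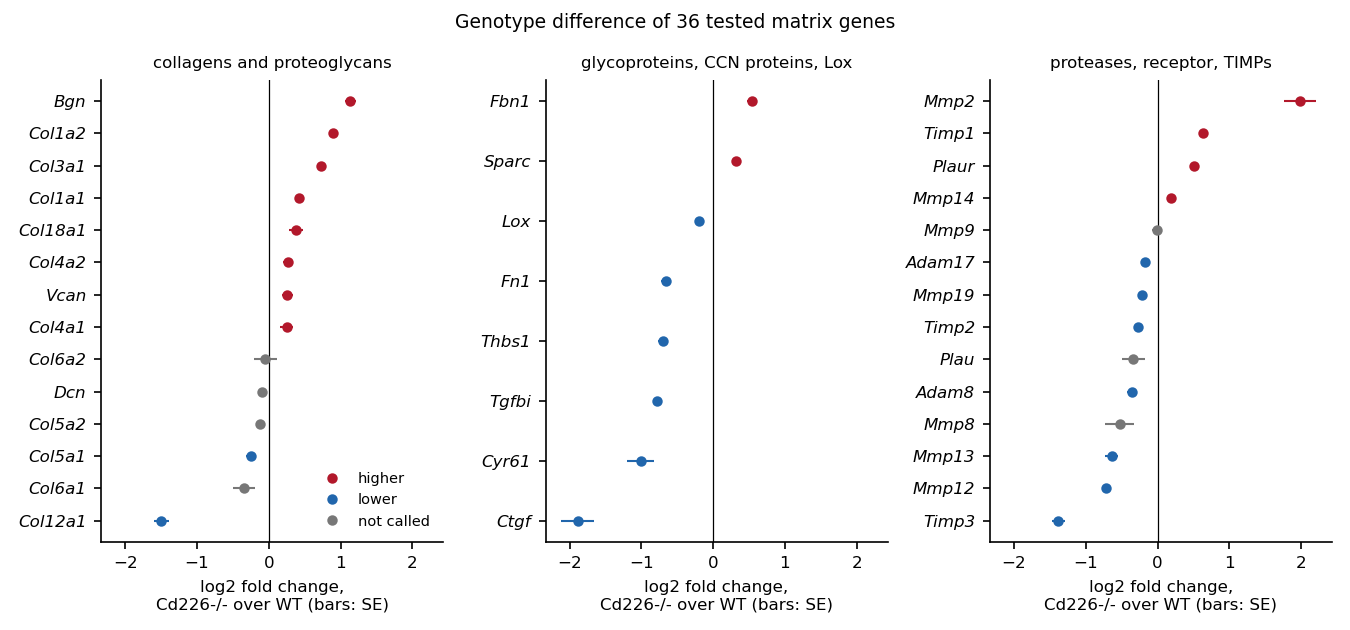
Log2 fold change of Cd226-/- over WT (x axis) with its standard error for the 36 tested genes in their 3 classes, coloured by whether the gene was called higher, lower or neither. Mmp2 has the highest value (1.99) and Ctgf the lowest (-1.89), and each class holds genes called in both directions.

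The metalloproteinases Mmp12, Mmp13 and Mmp19 fell, and the part of the shifts in macrophage markers in the protease levels was not tested. Mmp12, macrophage elastase, had 481, 497 and 442 CPM in WT and 292, 263 and 305 CPM in Cd226-/- and fell by 0.72 on the log2 scale (log2 fold change -0.72 ± 0.058 (SE), adjusted p = 6.57e-09). Mmp13, a collagenase that cuts fibrillar collagen, had 39.4, 39.1 and 43.4 CPM in WT and 26.3, 21.9 and 30.0 CPM in Cd226-/- and fell by 0.64 (log2 fold change -0.64 ± 0.094 (SE), adjusted p = 3.21e-05). Neither gene's genotypes overlapped, and both calls held under every alternative. Mmp19 had 66.9, 67.1 and 71.8 CPM in WT and 58.8, 58.8 and 59.2 CPM in Cd226-/- and a small fall (log2 fold change -0.22 ± 0.058 (SE), adjusted p = 0.00601), which missed the threshold with replicate 1 alone on the Cd226-/- side (adjusted p = 0.0555). Of its exon bases 28.3% are shared with other genes, among them Tmem198b, whose own log2 fold change was 0.076 ± 0.14 (SE).

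The gelatinase Mmp2, an enzyme more typical of fibroblasts, moved the other way and from a low level. It had 35, 38 and 32 counts in WT and 102, 146 and 141 counts in Cd226-/-, or 1.92, 2.22 and 1.45 CPM in WT and 5.62, 8.74 and 7.67 CPM in Cd226-/-, and rose 3.97-fold (log2 fold change 1.99 ± 0.22 (SE), adjusted p = 4.94e-07). The lowest Cd226-/- library was above the highest WT library. Mmp14, the membrane-bound enzyme that activates MMP2 at the cell surface, had 754, 779 and 705 CPM in WT and 873, 844 and 823 CPM in Cd226-/-. Its rise was small (log2 fold change 0.18 ± 0.051 (SE), adjusted p = 0.00896) and was not called without WT replicate 3 (adjusted p = 0.0785).

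The 2 metalloproteinases best known from neutrophils were not called. Mmp9, gelatinase B, had 59.6, 58 and 48.9 CPM in WT and 58.9, 53.3 and 53.4 CPM in Cd226-/- (log2 fold change -0.0043 ± 0.074 (SE), adjusted p = 0.972), and its sign changed between alternatives. Mmp8, neutrophil collagenase, had 22.1, 32.3 and 19.6 CPM in WT and 15.4, 16.2 and 19.5 CPM in Cd226-/- (log2 fold change -0.53 ± 0.20 (SE), adjusted p = 0.0890). WT replicate 2 was high for Mmp8, and the lowest WT library was only just above the highest Cd226-/- library. Mmp8 was called lower by DESeq2 (adjusted p = 0.00490), without a filter (2.51e-06) and without WT replicate 3 (0.0106), over a range of 2.51e-06 to 0.332. Of 11 neutrophil markers, S100a8 had 55.2 ± 6.58 CPM for WT against 58.8 ± 3.61 CPM for Cd226-/- (SD, n = 3) and did not pass. The 9 other than S100a8 and Csf3r summed to 14, 29 and 21 for WT and 25, 30 and 37 for Cd226-/- counts. Csf3r rose (log2 fold change 0.68 ± 0.049 (SE), adjusted p = 8.80e-10), while Ly6g, Elane and Mpo had 0 to 4 counts in each library.

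Both ADAM proteases fell. Adam8, a sheddase of activated myeloid cells, had 947, 951 and 964 CPM in WT and 850.1, 689.9 and 695 CPM in Cd226-/- (log2 fold change -0.36 ± 0.068 (SE), adjusted p = 7.46e-04). Cd226-/- replicate 1 was closer to WT than replicates 2 and 3 were, and with it as the only Cd226-/- library the value was -0.16 and the call was lost (adjusted p = 0.0568). Adam17, which releases TNF from the cell surface, had 395, 405 and 388 CPM in WT and 354, 351 and 349.7 CPM in Cd226-/- (log2 fold change -0.17 ± 0.047 (SE), adjusted p = 0.00770). Its call too was lost in that setting (0.0740).

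Urokinase and its receptor differed from each other. Plaur, the receptor, had 83.3, 80.2 and 87.1 CPM in WT and 128, 113 and 115 CPM in Cd226-/- and rose 1.42-fold (log2 fold change 0.50 ± 0.058 (SE), adjusted p = 6.54e-07), without overlap. Plau, the protease, had 194, 185 and 176 CPM in WT and 182, 127 and 131 CPM in Cd226-/- and did not pass (log2 fold change -0.34 ± 0.16 (SE), adjusted p = 0.185). Cd226-/- replicate 1 lay within the WT range and replicates 2 and 3 lay below it. Without replicate 1 Plau was called lower, at -0.52 (adjusted p = 1.85e-09), and with the replicate number as a block at -0.35 (7.67e-04). With replicate 1 alone on the Cd226-/- side it was -0.023 (0.854). The ratio of Plau to Plaur counts was 2.34, 2.31 and 2.03 for WT and 1.42, 1.12 and 1.15 for Cd226-/-, lower in each Cd226-/- library than in any WT library.

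Promoter windows of 3 of these genes are shown since they carry the same AP-1 letters while the genes moved in different directions. AP-1 factors, made of Fos and Jun proteins, bind TGANTCA, in capitals below. Mmp13 and Mmp12, which fell, lie in the metalloproteinase cluster of chromosome 9, and Plaur, which rose, lies on chromosome 7. The Mmp13 window is chr9:7272264-7272513 (plus strand), with the motif from 35 bases before the start. For the second of 2 listed starts of Mmp12 the window is chr9:7347124-7347373 (plus strand), with the motif from 44 bases before the start, and that of the first start holds none. Plaur has chr7:24462233-24462482 (plus strand), with the motif from 69 bases before the start.
Mmp13: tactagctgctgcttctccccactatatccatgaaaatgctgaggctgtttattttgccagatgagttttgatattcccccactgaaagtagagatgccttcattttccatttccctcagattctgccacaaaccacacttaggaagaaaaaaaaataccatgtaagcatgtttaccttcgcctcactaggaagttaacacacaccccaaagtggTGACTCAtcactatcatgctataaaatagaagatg
Mmp12: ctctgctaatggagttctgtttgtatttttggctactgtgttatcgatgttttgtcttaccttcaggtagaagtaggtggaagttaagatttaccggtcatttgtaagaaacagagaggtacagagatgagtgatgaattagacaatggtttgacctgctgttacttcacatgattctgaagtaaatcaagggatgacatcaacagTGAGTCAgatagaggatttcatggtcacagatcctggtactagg
Plaur: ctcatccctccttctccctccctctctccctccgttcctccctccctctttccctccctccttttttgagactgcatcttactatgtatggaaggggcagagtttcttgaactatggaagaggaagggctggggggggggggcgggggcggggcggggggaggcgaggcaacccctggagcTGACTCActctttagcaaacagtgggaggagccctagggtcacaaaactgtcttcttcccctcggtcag

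TGANTCA on either strand was found in 4 of the 27 windows (those of Col6a1, Mmp12, Mmp13 and Plaur), beside 6.75% of all windows of that length. No single direction goes with the motif among them, since 2 fell, 1 rose and 1 was not called. Such a match describes letters in a window, not a bound site.

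The 3 TIMP genes split, with Timp1, the highest of them per kilobase, rising. Timp1, a secreted inhibitor induced by many inflammatory signals, had 246, 249 and 224 CPM in WT and 361, 376 and 374 CPM in Cd226-/- and rose 1.55-fold (log2 fold change 0.63 ± 0.051 (SE), adjusted p = 4.81e-09). Timp2, which also takes part in the activation of MMP2 by MMP14, had 219, 221 and 215 CPM in WT and 182, 178 and 183 CPM in Cd226-/- and fell by 0.27 on the log2 scale (log2 fold change -0.27 ± 0.047 (SE), adjusted p = 1.23e-04). Timp3, the inhibitor that binds to the matrix and also blocks ADAM17, had 33.5, 29.5 and 31.1 CPM in WT and 12.2, 11.9 and 12.1 CPM in Cd226-/- and fell by 1.38 (log2 fold change -1.38 ± 0.092 (SE), adjusted p = 1.98e-10). The 3 calls held under every alternative and no genotypes overlapped. Timp3 lies within the gene Syn3 on the opposite strand and shares 21.3% of its exon bases with it. Syn3 was given 6 to 15 counts in each library, but reads of the shared bases cannot be separated. Within libraries, the ratio of Timp1 to Timp3 counts was 7.34, 8.44 and 7.20 for WT and 29.6, 31.7 and 31 for Cd226-/-, and that of Timp1 to Timp2 was 1.12, 1.13 and 1.04 for WT and 1.98, 2.11 and 2.05 for Cd226-/-. These ratios do not depend on the scaling of the libraries.

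**Figure D3:**
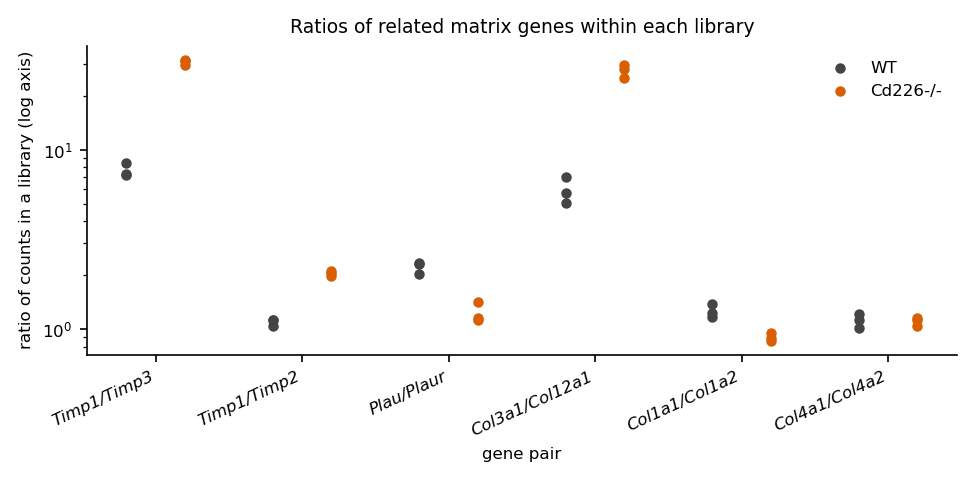
Ratio of the counts of 2 related genes within each library (log axis) for 6 gene pairs, with WT and Cd226-/- libraries as separate points. Timp1 over Timp3 is 7.20 to 8.44 in WT and 29.6 to 31.7 in Cd226-/-, whereas Col4a1 over Col4a2 overlaps between genotypes.

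Summed over each class, the collagens and proteoglycans were higher in Cd226-/- and the other classes lower. The 15 collagens and proteoglycans summed to 918, 899 and 799.9 for WT and 1116, 1105 and 1147 for Cd226-/- CPM (872 ± 63.5 CPM for WT against 1123 ± 22 CPM for Cd226-/- (SD, n = 3)). Most of that difference came from Col1a1, Col1a2 and Col3a1, which alone summed to 392, 404 and 346 for WT and 605, 609.5 and 622 for Cd226-/- CPM. The 14 proteases, receptor and inhibitors summed to 3543, 3595 and 3419.8 for WT and 3398, 3114 and 3158 for Cd226-/- CPM. In the 8 glycoproteins and associated genes the sum was 7554, 8717 and 7484 for WT and 5266, 4866 and 4915 for Cd226-/- CPM, and Fn1 and Thbs1 made up most of it. Without Fn1, Thbs1 and Tgfbi the sum of that class went the other way, at 237, 221 and 223 for WT and 245, 251 and 250.2 for Cd226-/- CPM, higher in each Cd226-/- library than in any WT library. In each of the 3 whole classes the Cd226-/- libraries did not overlap with the WT libraries, although Cd226-/- replicate 1 was just below the lowest WT library for the proteases. The 3 TIMPs summed to 499, 499 and 471 for WT and 555, 566 and 569 for Cd226-/- CPM and the 7 metalloproteinases to 1425, 1475 and 1333 for WT and 1330.1, 1267 and 1298 for Cd226-/- CPM. These sums weight abundant genes most and are descriptions without a test.

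**Figure D4:**
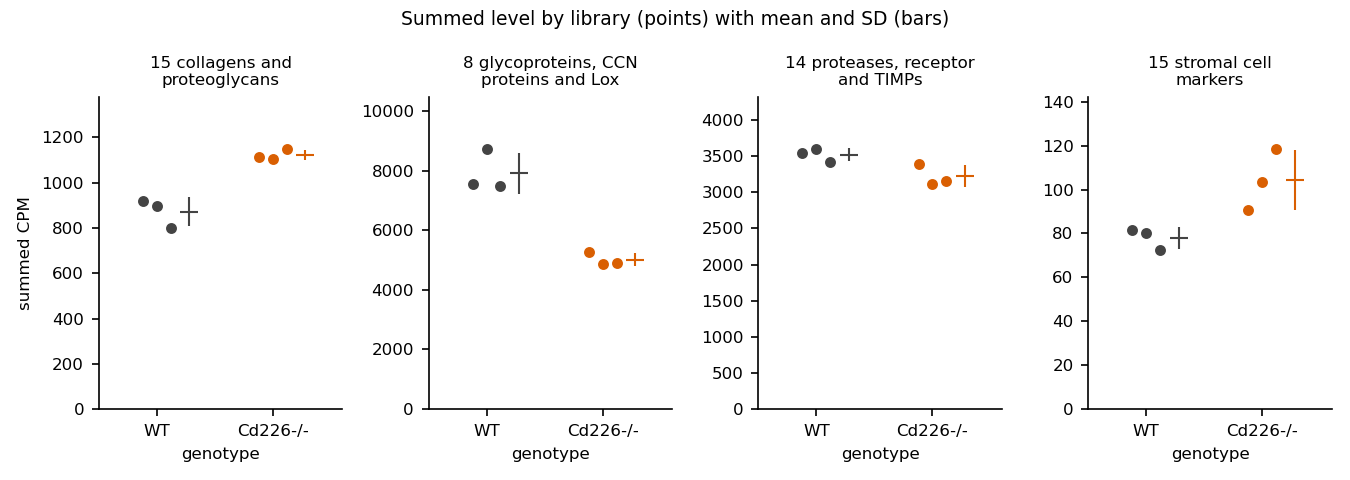
Summed CPM (y axes from 0) of the 3 classes of matrix genes and of 15 stromal cell markers in each library (points), with the mean and SD of each genotype (bars). The collagen and proteoglycan sum is 799.9 to 918 CPM in WT and 1105 to 1147 CPM in Cd226-/-, and the glycoprotein sum, carried by Fn1, Thbs1 and Tgfbi, and the protease sum are lower in all 3 Cd226-/- libraries.

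Another 188 matrix genes were looked up in lists, of which 128 were tested. Of these 28 rose and 27 fell, or 43.0% beside 30.9% of all tested genes. Some of these calls may depend on Cd226-/- replicates 2 and 3. Among 16 tested collagen processing enzymes 6 rose and 3 fell, or 56.2%. P4ha1, a collagen prolyl hydroxylase, rose 1.36-fold (log2 fold change 0.44 ± 0.054 (SE), adjusted p = 1.76e-06), and Ppib, a prolyl isomerase of the endoplasmic reticulum, 1.24-fold (log2 fold change 0.31 ± 0.050 (SE), adjusted p = 4.69e-05). Plod2, a collagen lysyl hydroxylase, fell by 1.04 on the log2 scale (24.3 ± 4.47 CPM for WT against 11.8 ± 1.07 CPM for Cd226-/- (SD, n = 3); adjusted p = 3.78e-06). Of 13 other collagen genes tested, 0 rose and 1 fell, or 7.69% beside 30.9% of all tested genes. Their median log2 fold change was 0.12. The genotypes did not overlap for 4 that were higher and 2 that were lower in Cd226-/-, beside 44.4% of all tested genes without overlap. Several had few counts, such as Col24a1 with 7, 10 and 5 in WT and 13, 11 and 26 in Cd226-/-. An absent call at such counts does not show that a gene was unchanged. The gene that fell, Col14a1, a relative of Col12a1, had 0.714 ± 0.0947 CPM for WT against 0.209 ± 0.0781 CPM for Cd226-/- (SD, n = 3). It had 15, 11 and 15 counts in WT and 3, 5 and 3 counts in Cd226-/- (log2 fold change -1.75 ± 0.55 (SE), adjusted p = 0.0180).

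In the list of laminins, nidogens and basement membrane proteoglycans 10 were tested, 1 rose and 3 fell. That is 40% beside 30.9% of all tested genes. Lamc1, the γ1 chain of most laminins, fell by 0.59 on the log2 scale (153 ± 2.21 CPM for WT against 102 ± 4.31 CPM for Cd226-/- (SD, n = 3); adjusted p = 1.59e-08), and Nid1, which joins laminin to type IV collagen, fell by 0.48 (adjusted p = 0.00143). Hspg2, perlecan, rose 1.38-fold (adjusted p = 0.00583). The type IV collagens were called in the opposite direction to Lamc1 and Nid1.

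Other matrix glycoproteins were tested for 22 genes, of which 9 rose and 5 fell, or 63.6% beside 30.9% of all tested genes. Tnc, tenascin C, fell by 1.08 on the log2 scale (11.3 ± 0.808 CPM for WT against 5.33 ± 0.942 CPM for Cd226-/- (SD, n = 3); adjusted p = 8.25e-06). The latent TGF-β binding proteins divided, with Ltbp3 falling by 0.71 (adjusted p = 4.46e-06) and Ltbp2 rising 1.69-fold (adjusted p = 1.38e-05).

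Of 20 other metalloproteinases and ADAM proteases 5 rose and 3 fell, or 40% beside 30.9% of all tested genes. Mmp3, stromelysin 1, had 16, 10.7 and 12.2 CPM in WT and 29.5, 36.4 and 34.7 CPM in Cd226-/- and rose 2.59-fold (log2 fold change 1.37 ± 0.13 (SE), adjusted p = 6.75e-07). Adam10, a sheddase related to Adam17, had 197, 201 and 201 CPM in WT and 139, 138 and 143 CPM in Cd226-/- and fell by 0.51 on the log2 scale (log2 fold change -0.51 ± 0.048 (SE), adjusted p = 3.99e-08). Adam19 rose 1.58-fold (adjusted p = 1.18e-04). Among 10 tested genes of plasminogen activation and protease inhibition 1 rose and 3 fell, or again 40%. Slpi, a secreted inhibitor of neutrophil elastase, fell by 0.30 (1965 ± 58.4 CPM for WT against 1593 ± 105 CPM for Cd226-/- (SD, n = 3); adjusted p = 1.91e-04).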

How the data were processed

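RNA was measured by sequencing in 6 libraries of bone marrow-derived macrophages, 3 WT and 3 Cd226-/-, grouped by the genotype in the labels. The authors deposited 1 table of raw read counts per gene symbol, not normalized. Reads were aligned with HISAT2 to GRCm38, per the submitters' processing notes. How reads were assigned to genes, with which annotation and strand setting, is not given in the sources used here. Each column matched 1 library's title, and 0 columns of sample values were left unused.

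The counts went into edgeR 4.0.16 under R 4.3.3 (filterByExpr, TMM scaling, robust quasi-likelihood F-test, two-sided, genotype as the only term), with Benjamini-Hochberg adjustment over 13215 genes. Each standard error is the log2 fold change over the root of F. Levels in CPM use total counts times the TMM factor, so that 1 count equals 0.0452 to 0.0599 CPM. Where a library has 0 counts, up to 3 remain possible from counting error only. Exon lengths and gene positions come from GENCODE M21 (GRCm38), promoter sequences from RefSeq (GRCm38.p6). Ctgf and Cyr61 were matched through their current symbols.

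Replicates within a genotype differed by more than counting noise (chi-square over degrees of freedom 2.17 to 7.76), so all 6 were kept. Same-numbered replicates did not deviate together (correlations of -0.015 to 0.018), so the number was no block. The steps were tested on simulated data. The 37 members, the 188 further matrix genes and the marker lists were chosen with earlier results of these data known; all members are named, and up to 3 called genes with the smallest p of each further list, except 1 gene that is not reported here. The gene pairs and class sums were chosen after values were seen. Alternatives were DESeq2 1.42.0 size factors and Wald test, library size alone, no filter, a mean of at least 5 CPM, limma-voom (limma 3.58.1), the replicate block, each library left out, and replicate 1 alone on the Cd226-/- side.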

Additional observations from a re-analysis of the deposited data

How the results depend on the processing

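Of the 29 called members, 19 (9 higher and 10 lower) kept their direction and their call under every alternative that tested them; Mmp2 was not tested at a mean of at least 5 CPM. With each library left out in turn, members higher ranged from 10 to 14 and members lower from 13 to 16, wider matrix genes higher from 22 to 27 and lower from 20 to 28, and all genes called from 3263 to 4379. With replicate 1 alone on the Cd226-/- side, the spread comes from the WT libraries alone and this library is taken to vary as they do. The wider matrix genes were then 18 higher and 17 lower, and all genes called were 2957. Library size alone gave 1773 genes higher and 2764 lower, against 2130 and 1956 with TMM. The replicate block gave 14 members higher and 16 lower and 4137 genes called, adding the Plau call.

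Signs changed for members near 0 that were not called. Mmp9 had log2 fold changes of 0.0069 at a mean of at least 5 CPM, 0.0045 by limma-voom, 0.048 without WT replicate 1, 0.027 without WT replicate 2, 0.021 without Cd226-/- replicate 2, 0.023 without Cd226-/- replicate 3 and 0.096 with replicate 1 alone on the Cd226-/- side. Mmp9 reached -0.093 without WT replicate 3, and Col6a2 ranged from -0.18 without Cd226-/- replicate 3 to 0.060 without Cd226-/- replicate 2. The cause of these changes was not tested. Depth limits Lum, Ctgf, Cyr61 and Mmp2 most, the members with the fewest counts.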

Other observations

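Proteoglycans and hyaluronan-handling genes outside the 37 members gave calls in both directions. Of 12 tested, 2 rose and 4 fell in Cd226-/- (edgeR), or 50% called beside 30.9% of all tested genes (16.1% higher and 14.8% lower). Tnfaip6 (TSG-6), a hyaluronan-binding protein induced in inflammation, had 8.59, 7.82 and 8.22 CPM in WT and 3.80, 4.43 and 3.81 CPM in Cd226-/- and fell by 1.03 on the log2 scale (log2 fold change -1.03 ± 0.16 (SE), adjusted p = 3.14e-05). Srgn, serglycin, the granule proteoglycan of blood cells, had 1199, 1067 and 1162 CPM in WT and 969, 834 and 821 CPM in Cd226-/- (log2 fold change -0.38 ± 0.063 (SE), adjusted p = 1.18e-04). Hpse, heparanase, which cuts heparan sulfate chains, had 141, 129 and 144 CPM in WT and 187, 172 and 168 CPM in Cd226-/- and rose 1.28-fold (log2 fold change 0.35 ± 0.056 (SE), adjusted p = 4.52e-05). For all 3 genes the Cd226-/- libraries did not overlap with WT.

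Genes of the YAP/TEAD and TGF-β responses, the signals best known to control Ctgf and Cyr61, gave calls in both directions. Of 25 tested, 4 rose and 5 fell, or 36% beside 30.9% of all tested genes. Ankrd1, a YAP target like Ctgf and Cyr61, fell by 2.61 on the log2 scale from a low level (22, 31 and 42 counts in WT and 6, 6 and 2 counts in Cd226-/-; log2 fold change -2.61 ± 0.47 (SE), adjusted p = 1.84e-04). Axl, a receptor tyrosine kinase of macrophages that is also listed among YAP targets, had 43.2, 43.3 and 40.0 CPM in WT and 141, 124 and 126 CPM in Cd226-/- and rose 3.10-fold (log2 fold change 1.63 ± 0.062 (SE), adjusted p = 1.85e-14). Crim1 rose 1.44-fold (adjusted p = 1.65e-04). The list thus held genes moving with Ctgf and Cyr61 and genes moving against them.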
